A study of Mus musculus with 8 samples.

Results

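The interactions described here joined a 5 kb bin with an H3K27ac peak to a 5 kb bin without one, over less than 500 kb, in HPC-7 cells, a mouse hematopoietic progenitor line. They were taken from 4 deposited lists of significant H3K27ac HiChIP interactions (loops) by the caller's peak flags, as the loops in which exactly 1 of the 2 bins was flagged, and are called mixed loops. There were 38384 of them among 411922 listed loops. Since a loop could be listed more than once, these were 22958 distinct loops, with 10673 distinct non-peak bins. The other loops under 500 kb joined 2 peak bins, and no listed loop joined 2 non-peak bins. Each list also held between 74 and 170 loops of the mixed kind at 500 kb or more, which were left out.

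The cells carried p42, the full-length form of the transcription factor CEBPA, or p30, the shorter isoform produced in CEBPA-mutant leukemia. Each line was untreated (UT) or had received lipopolysaccharide (LPS), a bacterial ligand of the receptor TLR4, at 100 ng/mL for 2 h. The 4 groups had 2 HiChIP libraries each, 8 in all, and 1 list per group was deposited. Series of 4 values below run from p30 UT and p30 LPS to p42 UT and lastly p42 LPS. No spread between replicates could therefore be measured, and each difference between lists compares those libraries, not the conditions. Both lines were retrovirally transduced cells sorted for GFP from the same parent line, so that all groups, controls included, carried a transduced isoform. The study describes ERT2-fused and constitutive forms of each isoform, and the labels do not say which was used for HiChIP. An H3K27ac HiChIP library of cells with an empty vector was not analysed here.

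H3K27ac marks active promoters and enhancers, and HiChIP enriches ligation products in which at least 1 fragment carries the mark. A caller that asks for a peak in 1 bin of each pair can thus list contacts between an acetylated element and DNA without a called peak. In mammalian chromosomes, loops often end where the zinc finger protein CTCF is bound and holds cohesin, and the 2 CTCF motifs of such a loop usually point towards each other.

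Some non-peak bins carried many loops in every list, and the match to the core of the CTCF motif in 6 of them is shown first, because the direction of this match is compared with the direction of the loops further on. The bins were picked after their values were seen. Each line gives 60 bases of the GRCm39 (mm39) genome on the strand of the match, 5′ to 3′, with the 9 bases of the core AGGNGGCGC in capitals. A match is a run of letters and not evidence of binding.
chr17:34389910-34389969, plus strand, intergenic between H2-DMb1 and Psmb9: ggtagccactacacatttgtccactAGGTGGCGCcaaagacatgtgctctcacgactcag
chr17:35325100-35325159, minus strand, in the Ly6g5c start bin: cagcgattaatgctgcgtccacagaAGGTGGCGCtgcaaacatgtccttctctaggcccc
chr8:85537623-85537682, minus strand, intergenic: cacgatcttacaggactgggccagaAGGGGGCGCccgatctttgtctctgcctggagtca
chr11:116117417-116117476, plus strand, in an intron of Evpl: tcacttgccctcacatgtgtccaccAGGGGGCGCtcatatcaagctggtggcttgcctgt
chr2:167122723-167122782, plus strand, intergenic: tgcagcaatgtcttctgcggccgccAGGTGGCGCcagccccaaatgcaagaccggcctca
chr7:141982069-141982128, plus strand, intergenic: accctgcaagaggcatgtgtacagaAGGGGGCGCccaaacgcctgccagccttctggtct

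Mixed loops were a minority of every list. There were 9017 and 8235 in p30 (UT, LPS) and 14339 and 6793 in p42 (UT, LPS). They made up 11.2% of the p30 UT list (95% Wilson interval, 10.99 to 11.4), 8.70% of the p30 LPS list (8.53 to 8.89), 9.06% of that of p42 UT (8.92 to 9.20) and 8.64% of that of p42 LPS (8.45 to 8.84). The share was thus highest in p30 UT, outside the intervals of the other lists, which cover counting error only. The number of contacts in the caller's model, used as the depth of a list, was 17976716 and 14503330 in p30 (UT, LPS) and 18999991 and 15831583 in p42 (UT, LPS). Per 1000000 modelled contacts, mixed loops numbered 502, 568, 755 and 429, respectively. These loops held 0.902% and 1.02% of the modelled contacts in p30 (UT, LPS) and 1.44% and 0.742% in p42 (UT, LPS). The order of the counts followed the lengths of the lists only in part: when each list was reduced to the 78591 loops with the smallest q-values, p30 UT had 8760 mixed loops, p42 LPS 6793, p30 LPS 6461 and p42 UT 5508, so that the ratio of p42 UT to p30 UT changed from 1.59 to 0.629.

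**Figure D1:**
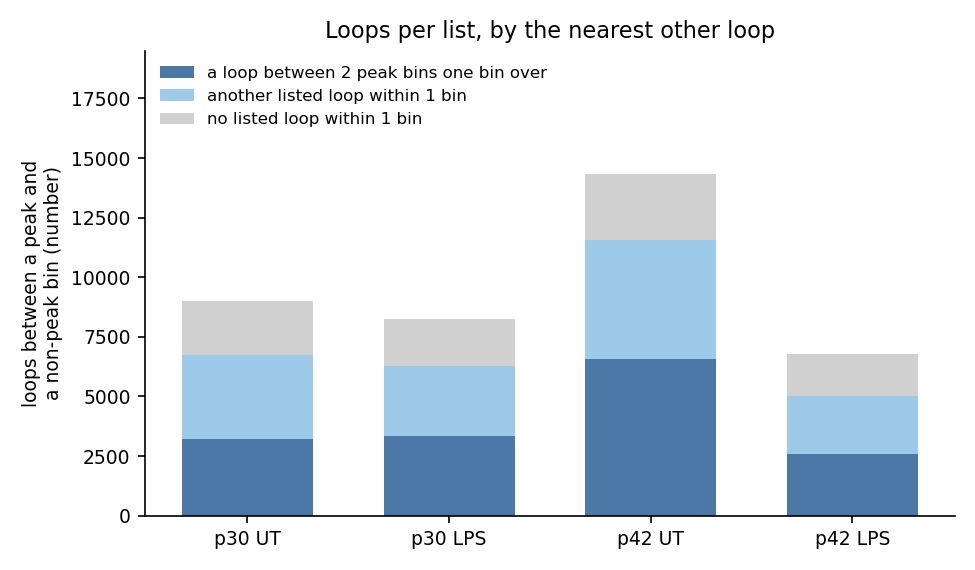
Number of loops between a peak and a non-peak bin (y axis) in each of the 4 lists (x axis), with the segments of a bar giving those that lay 1 bin from a listed loop between 2 peak bins, those with another listed loop within 1 bin, and those with no listed loop within 1 bin. The p42 UT bar is the tallest, with 14339 loops, of which 6570 lay beside a loop between 2 peak bins.

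Many mixed loops lay directly beside other loops. A loop between 2 peak bins lay 1 bin away from 35.7% and 40.4% of the mixed loops in p30 (UT, LPS) and 45.8% and 38.1% in p42 (UT, LPS). Conversely, 25.1%, 23.7%, 19.2% and 26.1% had no listed loop of any kind within 1 bin. The isolated loops were longer than the ones beside a peak to peak loop, with a median of 115 to 120 kb against 80 to 85 kb. The stacked counts per list show that the share of isolated loops was lowest in p42 UT, the longest list.

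Mixed loops spanned larger distances than loops between 2 peak bins in all 4 lists. Their median distance between bin starts was 105 kb and 95 kb in p30 (UT, LPS) and 95 kb and 100 kb in p42 (UT, LPS), against 35, 30, 40 and 35 kb for peak to peak loops. The mean difference was 63.75 ± 6.29 kb (SD, n = 4 lists; two-sided exact sign-flip permutation test over the lists, p = 0.125, the smallest p that 4 lists allow). From 46.0% to 50.5% of mixed loops spanned more than 100 kb, against 14.7% to 16.8% of peak to peak loops. The share of all loops that were mixed rose with distance. Between 10 and 20 kb it was 1.96% and 1.51% in p30 (UT, LPS) and 1.22% and 1.74% in p42 (UT, LPS). Between 300 and 500 kb it was 41.9%, 35.5%, 31.0% and 37.2%. The distances come from the called loops alone, and how many pairs of each kind were tested at each distance is not known from the lists.

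The strength of a loop was read as its contacts divided by the contacts that the caller expected from distance and coverage. Mixed loops had fewer contacts than peak to peak loops, with a median of 14 and 13 in p30 (UT, LPS) and 15 and 13 in p42 (UT, LPS) against 21, 20, 21 and 20. Median contacts over expected were nevertheless higher, at 5.60, 5.38, 4.97 and 5.57 against 4.12, 4.15, 4.14 and 4.18, a mean difference of 1.24 ± 0.29 (SD, n = 4 lists; exact sign-flip permutation test, two-sided, p = 0.125). This order turned when distance was taken into account. With peak to peak loops weighted to the distances of the mixed loops, their medians were 6.03, 5.98, 5.69 and 6.03, and the mean difference became -0.55 ± 0.14 (SD, n = 4 lists; exact sign-flip permutation test, p = 0.125). Within distance classes, mixed loops were stronger only between 10 and 20 kb, by 0.68 and 0.30 in p30 (UT, LPS) and 0.12 and 0.62 in p42 (UT, LPS). In the other 7 classes of each list they were the weaker ones, by up to 1.00 in p42 UT at 40 to 60 kb. At the 500 kb limit, the loops just inside (475 to 495 kb) numbered 17 and 18 in p30 (UT, LPS) and 28 and 13 in p42 (UT, LPS), with median contacts over expected of 7.89, 7.60, 7.84 and 7.16, while the 17, 5, 24 and 9 loops just outside (500 to 520 kb) had 8.14, 9.28, 7.203 and 8.40.

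**Figure D2:**
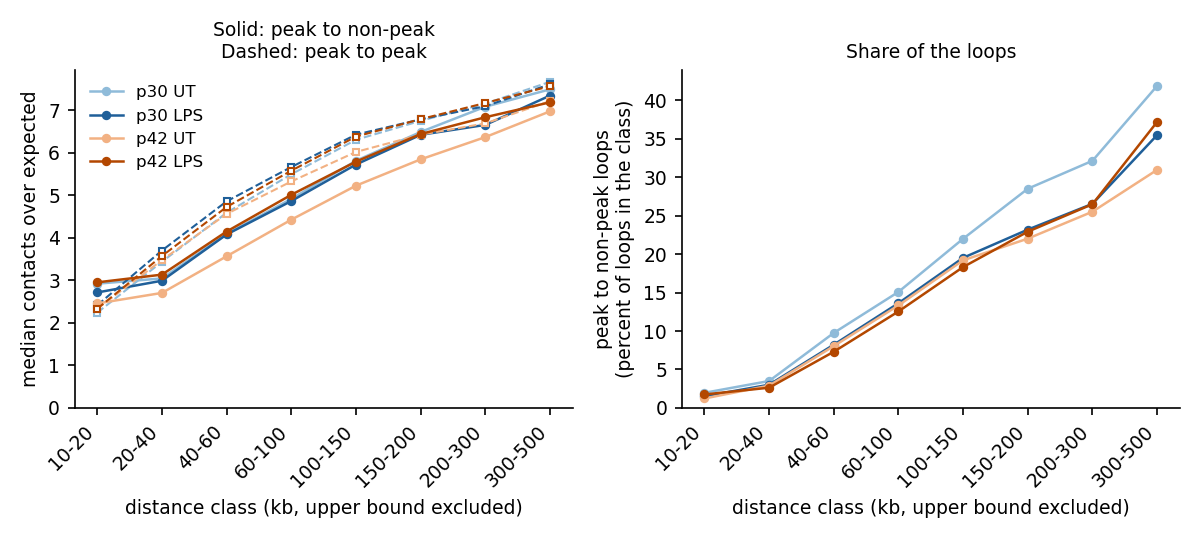
Median contacts over expected (left, no unit) and share of loops that joined a peak and a non-peak bin (right, percent), by distance class (x axis, kb), with a line per list and, on the left, solid lines for mixed loops and dashed lines for loops between 2 peak bins. On the right, all 4 lines rise, from between 1.22% and 1.96% at 10 to 20 kb to between 31.0% and 41.9% at 300 to 500 kb, and on the left the solid lines lie above the dashed ones only in the first class.

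The non-peak bins were spread over gene bodies, intergenic DNA and, for a small share, gene starts. Bins with the start of a protein-coding gene (GENCODE M39) made up 5.61% of the 5415 non-peak bins and 5.45% of 4828 in p30 (UT, LPS) and 5.03% of 7478 and 4.57% of 4203 in p42 (UT, LPS). This share stood above the 3.84% of all 5 kb bins of the genome and far below the 13.6% of listed peak bins. Bins next to a listed peak that were in no mixed loop had 3.89%. Exons of protein-coding genes were found in a further 25.9% to 27.1% of the non-peak bins, introns alone in 15.9% to 17.1% and bodies of non-coding genes in 14.4% to 15.2%. From 23.4% to 25.4% had no annotated gene, against 37.1% of all genome bins and 7.60% of peak bins. Bins with the start of another gene and no protein-coding start made up 12.8% to 13.1%. The median GC content of the non-peak bins, 45.7% to 46.3%, was close to the 45.5% of peak bins and above the 41.1% of all bins.

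**Figure D3:**
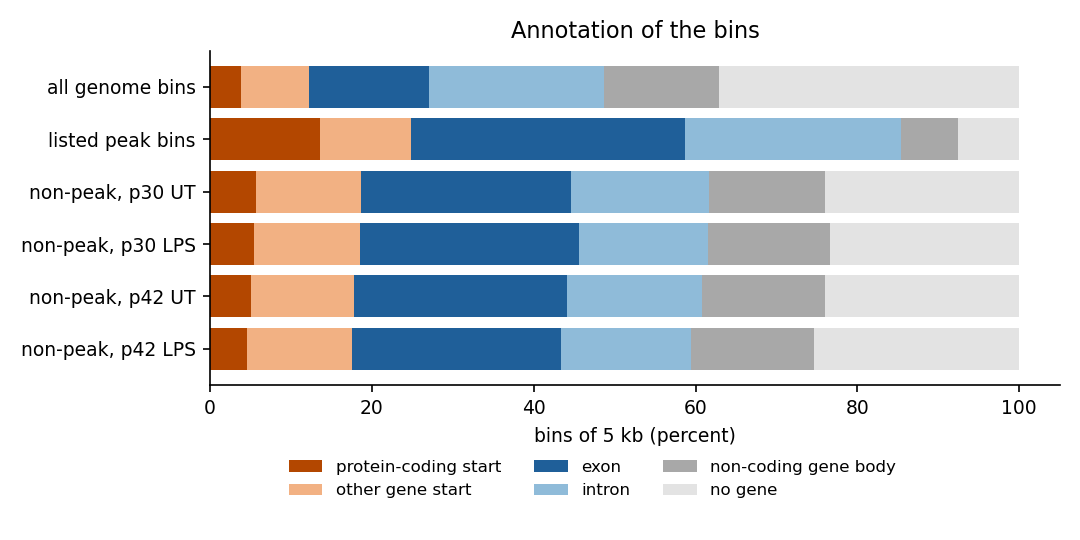
Share of 5 kb bins (x axis, percent) by annotation for all bins of the genome, all listed peak bins and the non-peak bins of mixed loops in each list, each bin counted once in the first class that applied in the order of the legend. The segment of protein-coding starts is between 4.57% and 5.61% in the non-peak bins, against 13.6% in peak bins.

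Non-peak bins were not free of reads. Their median coverage was 1548 and 1360.5 reads in p30 (UT, LPS) and 1639 and 1248 in p42 (UT, LPS). Listed peak bins had 2706, 2465, 2960 and 2215, so that the typical non-peak bin had 55.2% to 57.2% of the coverage of a typical peak bin. By contrast, the mean coverage of non-peak bins in the caller's model was 609, 393, 456 and 471, and 97.0% to 98.4% of the non-peak bins of mixed loops exceeded it. From 7.66% to 9.91% exceeded even the median of the peak bins. The bins listed without a peak were thus the well-covered ones, and whether they hold acetylation below the threshold of the peak caller was not tested. No bin was flagged as a peak in 1 list and as a non-peak in another: 64985 bins were flagged throughout and 10837 never, so that the flags came from a common set of peaks and gained or lost acetylation does not appear in them. In the 2047 non-peak bins present in all 4 lists, median coverage was 1677 and 1406 in p30 (UT, LPS) and 1771 and 1313 in p42 (UT, LPS), an order shared with the 31321 peak bins in all lists (3066, 2839, 3749 and 2466).

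Peaks were close by. A peak bin lay directly beside 51.3% and 54.4% of the non-peak bins in p30 (UT, LPS) and 55.1% and 55.3% in p42 (UT, LPS), against 6.38% of the genome's bins outside the peaks. Most non-peak bins had 1 mixed loop (59.4% to 67.2%), and the highest number was 19, 20, 22 and 15, respectively. Bins with 5 or more loops numbered 214 and 207 in p30 (UT, LPS) and 508 and 138 in p42 (UT, LPS).

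The peak bins at the other end were rich in promoters. Among the distinct partner bins, 22.5% and 24.7% in p30 (UT, LPS) and 23.7% and 21.4% in p42 (UT, LPS) held the start of a protein-coding gene, against 15.5%, 15.4%, 14.4% and 15.1% of the bins of peak to peak loops. The difference was 7.98 ± 1.57 percentage points (SD, n = 4 lists; two-sided exact sign-flip permutation test, p = 0.125). Counted per loop end it was smaller, 4.94 ± 1.92 (SD, n = 4 lists; exact sign-flip permutation test, p = 0.125). Loops with a gene start on both sides were few: both bins held a protein-coding start in 166 and 148 loops of p30 (UT, LPS) and in 254 and 98 of p42 (UT, LPS).

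Of 21757 protein-coding genes, 573 had their start in a non-peak bin of a mixed loop, 107 of them in every list, and 271 of the 573 starts lay beside a peak bin. In comparison, 9951 genes started in a listed peak bin. Through the partner bin, 3102 genes had a promoter in a mixed loop, 597 of them in every list. The 3 genes with the most such loops shared 1 bin on chromosome 11: Cyb5d1, Naa38 and Tmem88 with 12, 14, 12 and 7 loops in p30 (UT, LPS) and p42 (UT, LPS). Cd164, which encodes a sialomucin of progenitor cells, followed with 9, 10, 17 and 7.

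Few genes of the lists that describe the cells and the treatment had their starts in the non-peak bins, as was so for all protein-coding genes (2.63%). Of 42 cytokine and chemokine genes, 2 did (4.76%). Csf2, the gene of the growth factor GM-CSF, had 1 loop in each p30 list and none in the p42 lists, and Ccl22, a chemokine gene, had 1 in p42 UT alone. Among 18 AP-1 family genes only Batf3, a partner of JUN proteins known from dendritic cells, was found, with 0, 1, 0 and 3 loops in p30 (UT, LPS) and p42 (UT, LPS). None of 25 NF-kB factors and feedback inhibitors, 30 stem and progenitor regulators or 72 cytosolic ribosomal protein genes had a non-peak start. Such starts were also found for Retnlg of 30 granulocyte genes, Ahsp of 25 erythroid and megakaryocyte genes and Wnt1 and Wnt7a of 40 developmental regulators. Starts in listed peak bins were counted as a check of the cell type. They were found for 25 of the 30 stem and progenitor regulators, for 5 of the 25 lymphoid genes and for 1 of the 40 developmental regulators. The share over all protein-coding genes was 45.7%. Granulocyte genes (17 of 30, 56.7%), erythroid and megakaryocyte genes (14 of 25, 56.0%) and cytokines and chemokines (30 of 42, 71.4%) also stood above it. The check thus does not tell a progenitor from these other blood lineages.

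Promoters with a peak were also counted as the acetylated partner. Of the 24 promoters of the NF-kB list in peak bins, 15 (62.5%) had a mixed loop in at least 1 list, against 31.1% of all protein-coding genes with a peak at the start. Ier3, an early response gene of NF-kB, had 6, 5, 7 and 5 loops in p30 (UT, LPS) and p42 (UT, LPS), and Nfkbid, which encodes a nuclear IkB protein, had 5, 7, 5 and 3. The share was 56.0% for stem and progenitor regulators, 50.0% for erythroid and megakaryocyte genes, 47.7% for ribosomal protein genes, 43.3% for cytokines and chemokines, 41.2% for granulocyte genes and 35.7% for the AP-1 family. In the lists of other cell types it was 2 of 5 lymphoid promoters and the 1 developmental promoter in a peak bin. Over all genes of a list, with or without a peak, it was 8.0% of lymphoid and 2.5% of developmental genes, against 14.2% of all protein-coding genes. These shares rest on at most 65 promoters per list and were not tested. The single genes that follow were picked by no fixed rule. Lif, a cytokine of the IL-6 family, had 1, 5, 5 and 1 loops, and Cebpe, a regulator of granule genes, had 2, 1, 8 and 5. Cebpb, an inflammatory relative of CEBPA, had 3, 3, 7 and 3. Of the AP-1 family, Mafg had 1, 1, 5 and 2, Jund had 2 in every list, and Fos had 1 in p42 UT alone. The p42 UT list was also the longest.

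Among the genes whose start lay in a non-peak bin in all 4 lists, those with the most loops included several known from other tissues. Cfap126, a gene of motile cilia, led with 11 and 14 loops in p30 (UT, LPS) and 17 and 14 in p42 (UT, LPS). Its bin (chr1:170940001-170945000) had a coverage of 3096, 2737, 4340 and 2968 reads and lay beside a peak. Most of its partners in 3 or more lists stood 100 to 170 kb to the right, in a stretch with the promoters of Nr1i3, Apoa2 and Fcer1g, the Fc receptor gamma chain of myeloid cells. The Fcer1g promoter bin, 120 kb away, was a partner in all 4 lists.

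Other bins of this kind lay on chromosomes 9, 17 and 19. Ly6g5c, of the Ly6 family in the MHC class III region, had 7, 9, 13 and 7 loops, nearly all to the left, towards Vars1, Vwa7, Msh5 and Clic1. In the same region, 1 bin held the starts of both Ly6g6c and Mpig6b, an inhibitory receptor gene of platelets, with 5, 5, 8 and 4 loops and the highest coverage of the group, 4518, 3965, 5051 and 3432 reads. Best1, a chloride channel gene of the retinal pigment epithelium, had 7, 7, 9 and 9, to Rab3il1 25 to 35 kb away and to Fen1 and Tmem258 at 205 kb. For Elovl3, a fatty acid elongase gene, there were 8, 7, 9 and 3, all to the right, where the partners included the Nfkb2 promoter bin at 170 kb, with 10 contacts in p30 UT and 12 in p30 LPS and no listing in the p42 lists. The next bin, in an Nfkb2 exon at 175 kb, was listed in p42 UT alone, with 11 contacts, so that loops from Elovl3 to Nfkb2 were not confined to p30. Mst1r, which encodes a receptor tyrosine kinase, had 6, 6, 7 and 8.

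The remaining bins of this group lay on chromosomes 7, 8 and 17. Dand5, the gene of a secreted Nodal antagonist, had 5, 6, 11 and 4 loops, and the promoter bin of Lyl1, a stem cell factor, was a partner 120 kb away in all lists. The start bin of 1600014C23Rik had 7, 4, 10 and 8 loops, all to the right, among them the Vegfa promoter at 300 kb in every list. The bin shared by Cimap1a and Scgb1c1 had 7, 8, 7 and 3, with the Cox8b promoter bin 55 kb away. Ins2, an insulin gene, had 7, 8, 6 and 2 loops, all to the left, with Tnni2 at 235 kb and Mrpl23 at 140 to 145 kb.

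The non-peak bins without any gene start that had the most loops are the next group. The intergenic bin chr17:34385001-34390000 in the MHC class II region had 17, 20, 22 and 15 loops. Its partners included the starts of H2-DMa at 35 kb, with 72, 56, 69 and 58 contacts in p30 (UT, LPS) and p42 (UT, LPS), of Brd2 at 50 kb (30, 27, 30 and 29), of Rxrb at 135 kb (18, 27, 33 and 25) and of H2-Ob at 70 kb on the other side (30, 24, 37 and 14). The H2-DM and H2-O genes load and edit peptides on MHC class II, and Brd2 encodes a reader of acetylated histones.

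On chromosome 7, bin chr7:142225001-142230000, next to the Ins2 start bin, had 19, 17, 14 and 10 loops, all to the left, to Tnni2, Syt8, Lsp1 and Mrpl23. The Mrpl23 promoter bin, 140 kb away, had 36, 33, 33 and 18 contacts. Bin chr2:167735001-167740000 had 7, 11, 13 and 14 loops, again all to the left. Its strongest, at 210 kb in an intron of Peds1, had 66, 73, 99 and 83 contacts, 43.4, 48.2, 58.0 and 50.9 times the expected number, and the Cebpb promoter bin next to it had 14, 26, 28 and 24.

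Bin chr11:103215001-103220000 had 7, 14, 14 and 9 loops, to Fmnl1, a formin gene of leukocytes, at 155 kb (27, 28, 39 and 34 contacts) and to Map3k14, which encodes the NF-kB inducing kinase, at 60 to 100 kb. For bin chr17:26690001-26695000 the counts were 9, 14, 14 and 7, and all loops ran to the right, to Dusp1, a phosphatase that ends MAP kinase signalling, and to Ergic1. The Dusp1 promoter bin at 35 kb had 35, 33, 42 and 29 contacts. A bin in an intron of Septin9 (chr11:117125001-117130000) had 10, 9, 14 and 10 loops, all within the gene and to the right. In 5 of these 6 bins, p42 LPS had fewer loops than p42 UT by 4 or more.

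Most non-peak bins with several loops had them all on 1 side. Among bins with 5 to 9 mixed loops, the loops ran to a single side in 85.9% of 199 bins and 83.2% of 196 in p30 (UT, LPS) and 84.8% of 453 and 86.9% of 130 in p42 (UT, LPS). Peak bins with 5 to 9 peak to peak loops did so in 40.4%, 33.5%, 30.9% and 39.96%. The Wilson intervals of both kinds did not overlap in any list, but the loops were not matched for distance. Mixed loops had a median distance of 95 to 105 kb over the lists, and peak to peak loops one of 30 to 40 kb. How far distance sets the difference in these shares was not tested. The peak bins of mixed loops, counted over their mixed loops alone, were 1-sided in 81.4% of 102, 73.4% of 124, 67.5% of 265 and 81.7% of 60 bins of that size, so that a part of this pattern was shared by both ends. Loops of neighbouring partners are not independent of each other, and how far runs of adjacent partner bins set these shares was not tested.

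**Figure D4:**
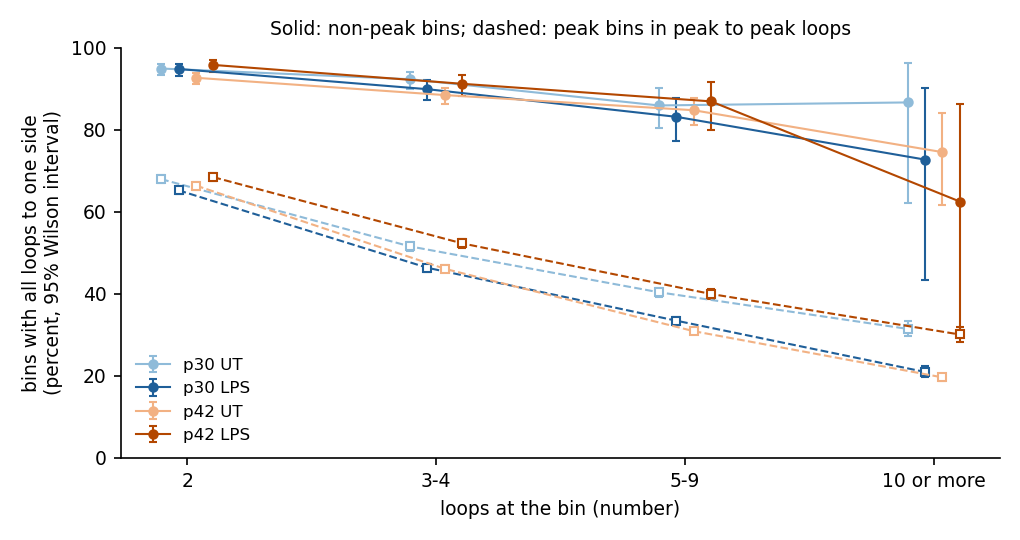
Share of bins with all their loops to 1 side (y axis, percent, with 95% Wilson intervals) by the number of loops at the bin (x axis), with solid lines for non-peak bins of mixed loops and dashed lines for peak bins in loops between 2 peak bins. With 5 to 9 loops, the non-peak bins sit between 83.2% and 86.9% and the peak bins between 30.9% and 40.4%, without matching for the distance of the loops.

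The core AGGNGGCGC of the CTCF motif, searched on both strands, was present in 10.1% and 9.84% of the non-peak bins in p30 (UT, LPS) and 8.61% and 10.3% in p42 (UT, LPS). It was found in 3.09% of all 5 kb bins of the genome, in 6.98% of peak bins and in 3.76% of bins beside a peak that were in no mixed loop. Against the bins of peak to peak loops the mean difference was 2.12 ± 0.52 percentage points (SD, n = 4 lists; two-sided exact sign-flip permutation test, p = 0.125). The core is GC-rich, and GC content moved with it: from 45% to 50% GC, the core was in 9.40% of non-peak bins, 7.58% of peak bins and 5.21% of unlisted bins, while from 55% to 65% GC it was in 28.4%, 27.7% and 27.6%. A control motif of the SP and KLF factors, GGGGCGGGG, was in 13.6% to 15.6% of the non-peak bins, 16.8% of peak bins and 7.65% of all bins. The more lists a non-peak bin was in, the more often it had the core, from 6.34% of bins in 1 list to 8.17%, 10.3% and 11.9% of those in 2, 3 and 4.

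Where the core was on 1 strand of the non-peak bin, it usually pointed at the partner. In p30 UT this was so for 707 of 1005 loops (70.3%, 95% Wilson interval 67.5 to 73.1), and in p30 LPS for 614 of 876 (70.1%, interval 66.98 to 73.0). In p42 UT it was so for 973 of 1406 (69.2%, interval 66.7 to 71.6) and after LPS for 527 of 752 (70.1%, interval 66.7 to 73.2). The control motif pointed at the partner in 48.4%, 48.3%, 51.1% and 50.6%, and the difference was 20.4 ± 1.86 percentage points (SD, n = 4 lists; exact sign-flip permutation test, two-sided, p = 0.125). In peak to peak loops, the core faced inward at 56.7%, 56.1%, 56.0% and 57.4% of the ends, 13.4 ± 0.58 points less (SD, n = 4 lists; exact sign-flip permutation test, p = 0.125). Restricted to 100 kb or more, the share in peak to peak loops was 61.7%, 61.8%, 60.8% and 64.1%, and in mixed loops 72.3%, 73.4%, 71.3% and 70.4%. At the partner peak bins of mixed loops the core faced inward in 66.7%, 65.03%, 66.5% and 66.4%. In non-peak bins away from a peak bin the shares were 73.3%, 74.7%, 72.9% and 74.1%, against 67.8%, 66.4%, 66.2% and 66.8% beside one. All these shares count loops of the same bin as independent, which they are not, so that the intervals are too narrow. Counted once per non-peak bin, ties left out, most loops ran with the core in 68.4% of 516 bins and 68.8% of 448 in p30 (UT, LPS). In p42 (UT, LPS) this was so in 65.5% of 608 and 67.8% of 410. For the control motif these shares were 49.6%, 49.9%, 51.7% and 52.6%.

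**Figure D5:**
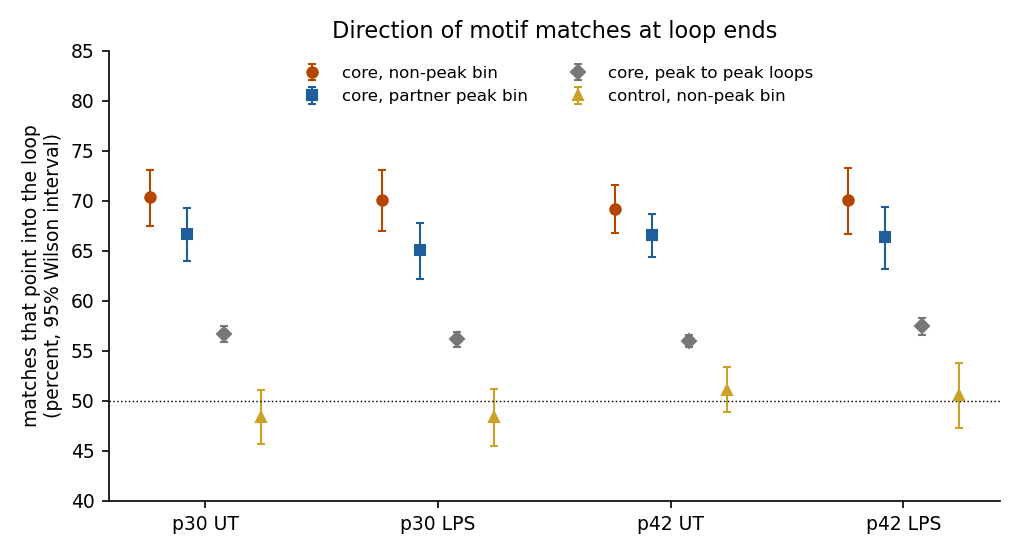
Share of motif matches that point into the loop (y axis, percent, with 95% Wilson intervals) in each list (x axis), for the core in the non-peak bin, in the partner peak bin and at both ends of loops between 2 peak bins, and for the control motif in the non-peak bin, with a dotted line where as many matches point in as out. The core in the non-peak bin lies between 69.2% and 70.3% and the control between 48.3% and 51.1%.

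When both bins of a mixed loop had the core on 1 strand, the pair pointed towards each other in 49.7% of 153 loops and 51.4% of 138 in p30 (UT, LPS) and 48.9% of 190 and 48.0% of 123 in p42 (UT, LPS). Both pointed away from the loop in 9.80%, 10.1%, 11.1% and 6.504%. The core was no strong mark of distance, since loops with a facing core had a median of 95 to 97.5 kb and those without a core 95 to 105 kb. Loops with a facing core had a median strength of 5.91 and 5.77 in p30 (UT, LPS) and 5.37 and 5.95 in p42 (UT, LPS), against 5.58, 5.35, 4.93 and 5.55 without a core and 5.36, 5.36, 4.94 and 5.34 with a core that faced away.

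Single bins followed the core or went against it as a whole. Of 233 non-peak bins that were in all 4 lists and had the core on 1 strand, 146 had every loop in its direction and 51 every loop against it. With 12 or more loops summed over the lists there were 78 bins, and in 60 of them most loops ran with the core. Among the bins whose sequences are printed above, all 54 loops of the chromosome 8 bin followed the core, as did all 35 at Evpl, all 29 at chr2:167122723-167122782 and 34 of 36 at Ly6g5c. The match in the MHC class II bin pointed to the right, and only 9 of its 74 loops ran that way. In the printed chromosome 7 bin (chr7:141980001-141985000), 2 of 39 did. The loops of these last 2 bins thus ran against the match, and binding of CTCF was not measured here.

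The strongest mixed loops of 20 kb or more, ranked after their values were seen by the lowest contacts over expected among the 4 lists, stood far above the medians. The first joined a bin at Glp1r, a hormone receptor gene, to a bin at Btbd9, 475 kb apart, with 156, 124, 112 and 82 contacts in p30 (UT, LPS) and p42 (UT, LPS). That was 130, 106, 93.6 and 69.9 times the expected number. Its contacts per 1000000 modelled contacts were lower in p42 than in p30, by 0.56 on the log2 scale in untreated cells (exact binomial test with Benjamini-Hochberg adjustment, adjusted p = 0.0446) and by 0.72 after LPS (adjusted p = 0.0379). With the caller's expected counts in place of depth, the log2 differences were -0.47 and -0.59, and neither was called (exact binomial test, adjusted p = 0.318 and 0.662). Mixed loops just inside the 500 kb limit (475 to 495 kb) had median contacts of only 9, 9, 9 and 8. Reads were placed on the reference genome, and whether the DNA of these cells has the same order here was not tested. The Peds1 loop near Cebpb was the second.

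Of the 12 loops ranked highest, 4 more are given here. An intron bin of Itga4, the integrin alpha 4 gene, had 52, 62, 50 and 44 contacts with a non-coding gene body at 200 kb, 33.9 to 48.1 times the expected number. A Vwf bin, of the platelet adhesion protein von Willebrand factor, had 42, 35, 47 and 34 with a bin at 180 kb. The bin of chromosome 8 whose sequence is printed above had 74, 72, 119 and 53 contacts with Nfix, 100 kb to its left. An exon bin of Ccdc162 reached the Cd164 promoter at 160 kb with 47, 63, 59 and 40 contacts.

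Sharing between lists was limited when identical bins were required. Of the 22958 distinct mixed loops, 2214 (9.64%) were in all 4 lists, against 15.1% of the distinct peak to peak loops. Loops listed in p42 UT alone were the largest class, with 6898 (30.05%), followed by p30 UT alone with 3017 (13.1%), p30 LPS alone with 2581 (11.2%) and p42 LPS alone with 1752 (7.63%). Only 889 (3.87%) were in both p42 lists and no other, 489 (2.13%) in both p30 lists alone, 1282 (5.58%) in both untreated lists alone and 279 (1.22%) in both LPS lists alone.

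Between pairs of lists, p30 UT and p42 UT shared 5010 mixed loops, 55.6% of the former and 34.9% of the latter. The LPS lists shared 3267, 39.7% of p30 LPS and 48.1% of p42 LPS. The p30 lists shared 3833, 42.5% of UT and 46.5% of LPS, and the p42 lists 4261, 29.7% of UT and 62.7% of LPS. As a share of the loops in either list, these were 27.3%, 27.8%, 28.6% and 25.3%, so that exchange of the isoform and exposure to LPS went with similar overlaps. Peak to peak loops shared 33.6%, 37.2%, 37.7% and 34.8%. With 1 bin of slack on each side, 69.9% to 89.0% of a list's mixed loops had a counterpart in the other list. Many mixed loops also had a listed neighbour within 1 bin in their own list, and how much of the match with slack comes from such clusters was not tested. Absence from a list means only that a pair did not pass the caller's threshold there.

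Loops that recurred were the stronger ones. Those in all 4 lists had median contacts over expected of 6.78 and 6.66 in p30 (UT, LPS) and 7.04 and 6.45 in p42 (UT, LPS), against 5.30, 4.88, 4.57 and 5.23 for loops in 1 list. Their non-peak bins had the core in 14.2% of the loops, and it pointed at the partner in 74.1%. In loops of 1 list the core was present in 8.23% to 9.59% and pointed at the partner in 65.4% to 66.5%. Loops in all lists lay more often beside a peak to peak loop, in 48.0% to 54.5% against 21.8% to 40.5%. Presence in several lists and strength are tied, since each list was cut at the same q-value.

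The genes with non-peak starts were next compared between p42 and p30 by their number of loops. More loops in p42 in both UT and LPS were found for 42 genes, and fewer for 31, with differences of mostly 1 loop: 7 and 2 of them differed by 2 or more in both. The largest gains in p42 were 1600014C23Rik (7 and 10 in UT, 4 and 8 in LPS, p30 first), Ell2, an RNA polymerase II elongation factor gene (0 and 3, 1 and 4), Epcip (0 and 3, 0 and 2) and Plin5, a lipid droplet gene (0 and 2, 0 and 2). Best1 had 7 and 9 under both treatments, and Slc26a10 1 and 3, then 0 and 2. The fewer loops in p42 were at Gm49394 (7 and 5, 5 and 2), Rsph1, a cilia gene (2 and 0, 2 and 0), C1qb, a complement gene (1 and 0, 1 and 0), C1qtnf6 (2 and 1, 2 and 1), Arl5c (1 and 0, 1 and 0) and Cacna1i, a calcium channel gene (2 and 0, 1 and 0). Counts this small have no measured error here. The p42 UT list was the longest and the p42 LPS list the shortest.

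Fewer loops after LPS in both lines were found for 86 genes with non-peak starts and more for 13, of which 16 and 0 changed by 2 or more in both. Tff3, a trefoil factor gene of mucosal epithelia, went from 5 to 2 in p30 and from 9 to 1 in p42. Btnl1, a butyrophilin-like gene, went from 5 to 3 and from 6 to 2, Ccdc9b from 3 to 0 and from 3 to 1, and Aqp7, a glycerol channel gene, from 2 to 0 in both, as did 4930568D16Rik. The start of 1600014C23Rik, higher in p42 above, went from 7 to 4 and from 10 to 8. More loops after LPS were listed for Batf3 (0 to 1 in p30, 0 to 3 in p42), Ell2 (0 to 1, 3 to 4), Asb6, Ccdc65 and Fut1 (each 0 to 2, 0 to 1) and 1700012B09Rik (2 to 3, 2 to 3). Both LPS lists held fewer mixed loops than their untreated list.

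All p-values of single loops, here and above, treat contacts as independent and cover counting error alone, since each group was 1 pooled list, so that they compare lists and not LPS or the isoforms. The contacts of loops listed in both of 2 lists were compared loop by loop with an exact binomial test (two-sided) relative to the modelled contacts, with Benjamini-Hochberg adjustment over all loops of both lists and a threshold of 0.05. For p42 UT against p30 UT, the median log2 ratio of the mixed loops was 0.06, against 0.21 for the other loops. Of 5010 mixed loops, 51 were higher in p42 UT and 7 in p30 UT, where the background over all 59069 loops was 4.76% and 0.066%. For p42 LPS against p30 LPS the median was -0.13 in both kinds of loop. None of 3267 was higher in p42 LPS and 32 were higher in p30 LPS, against 0.191% and 1.24% of all loops, and at an unadjusted p under 0.05 there were 22 and 165. The calls of both directions were thus below or near the background share, apart from the 7 loops higher in p30 UT (0.140%). Median contacts over both lists were 34 and 32 in the mixed loops, against 55 and 51 in other loops, for UT and LPS. A difference of the same size is called less often at fewer contacts, and the shares were not matched for contacts.

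For LPS against UT in p30 cells, the median log2 ratio was 0.17, against 0.22 for other loops. Of 3833 mixed loops, 31 (0.809%) were higher in p30 LPS and 1 (0.0261%) in p30 UT, against a background of 1.98% and 0.0128%. In p42 cells the median was -0.07, against -0.14. Of 4261, 3 (0.0704%) were higher in p42 LPS and 14 (0.329%) in p42 UT, against 0.0334% and 1.33%. The shares of the 1 loop higher in p30 UT and of the 3 higher in p42 LPS were thus above the background. Median contacts over both lists were 33 and 34 in the mixed loops of p30 and p42, against 52 and 54 in other loops. The 4 comparisons share lists, and a list that stands apart enters 2 of them.

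These calls rested on depth as the reference. With the caller's expected counts, which follow the coverage of the bins, the same test called 0 mixed loops for p42 UT against p30 UT, 1 for p42 LPS against p30 LPS, 0 for p30 LPS against p30 UT and 1 for p42 LPS against p42 UT. Over the mixed loops tested, the median log2 ratio of coverage, in reads not scaled to depth and so not on the scale of the contact ratios, at the non-peak bin was 0.07, -0.12, -0.25 and -0.44, and at the peak bin 0.20, -0.27, -0.14 and -0.63, in the same order. Of the 139 calls, at 104 distinct loops, 73 were at 10 kb, the shortest distance, which 3.93% to 5.42% of the tested mixed loops had.

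Some loops among the calls are given next, chosen after their values were seen and by no fixed gene list. Gadd45b and Nfkbid are of the NF-kB list above, while Pde4d, Cish, Kdm6b, C1qtnf6 and Tmprss6 are of none of the lists. The promoter of Gadd45b, a stress response gene induced by NF-kB, was joined to an intron of Gng7 over 55 kb, with 15 and 51 contacts in p30 (UT, LPS) and 22 and 42 in p42 (UT, LPS). Per 1000000 modelled contacts these were 0.834, 3.52, 1.16 and 2.65. Both LPS lists were above both untreated lists. The LPS list was higher by 2.08 on the log2 scale in p30 (exact binomial test, Benjamini-Hochberg adjusted p = 6.83e-05) and 1.196 in p42 (adjusted p = 0.0932), and the difference between the lines was not tested. With expected counts as the reference, the adjusted p in p30 was 0.0934.

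Pde4d encodes a phosphodiesterase that degrades cyclic AMP. A non-peak bin in its intron (chr13:108645001-108650000) had a pair of 10 kb loops, to the left with 75, 157, 101 and 174 contacts and to the right with 94, 159, 105 and 161. The left loop was higher in the LPS list by 1.38 in p30 (exact binomial test, Benjamini-Hochberg adjusted p = 1.03e-08) and by 1.05 in p42 (adjusted p = 5.95e-06) on the log2 scale. The right loop was higher by 1.07 (exact binomial test, adjusted p = 9.11e-06) and 0.88 (adjusted p = 0.000522). The coverage of the non-peak bin was 777 and 1226 reads in p30 (UT, LPS) and 851 and 1248 in p42 (UT, LPS), higher with LPS as well, and with expected counts as the reference none of these 4 adjusted p-values was below 0.619.

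Further loops were called after LPS in p30 and not in p42, and the difference between the lines was not tested. A bin 45 kb from the Nfkbid promoter had 43, 72, 69 and 60 contacts (log2 1.05 in p30, exact binomial test, Benjamini-Hochberg adjusted p = 0.0146). A bin 60 kb from the promoter of Cish, a feedback inhibitor of cytokine signalling, had 20, 42, 31 and 36 (log2 1.38, exact binomial test, adjusted p = 0.0279). An exon bin of Dnah2 had 49, 82, 78 and 53 with the promoter of Kdm6b, a histone demethylase gene, at 20 kb (log2 1.05, exact binomial test, adjusted p = 0.00658). C1qtnf6, whose start lay in the non-peak bin, had 19, 48, 18 and 25 contacts with a Tmprss6 bin at 80 kb (log2 1.65, exact binomial test, adjusted p = 0.00264). In these 4 loops the p30 LPS list had the highest count of all lists. For p42 LPS against p42 UT none of them was called, with adjusted p-values between 0.799 and 1 in the exact binomial test. The bin of the Nfkbid loop had a further called loop, of 15 kb, with 106, 132, 167 and 79 contacts. It was lower in p42 LPS than in p42 UT (log2 -0.82, exact binomial test, adjusted p = 0.00565) and than in p30 LPS (-0.87, adjusted p = 0.00478). A 10 kb loop of the next bin had 562, 681, 766 and 444 and was called in all 4 comparisons. The p42 LPS list was the lowest in both.

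Between p42 UT and p30 UT, the called loops included those at Alpk1, at Acer3, a ceramidase gene, and beside Fos, chosen after their values were seen. The start bin of Alpk1, a kinase gene that senses bacterial sugars, had 78, 79, 172 and 96 contacts over 10 kb (higher in p42 UT by 1.06 on the log2 scale, exact binomial test, Benjamini-Hochberg adjusted p = 7.07e-06), and its coverage was 605, 498, 1016 and 685 reads. An Acer3 intron had 104, 118, 225 and 132 (1.03, exact binomial test, adjusted p = 2.17e-07) and a coverage of 1136, 1149, 1938 and 1096. The bin next to the Fos start bin (chr12:85525001-85530000) had 11, 17, 36 and 17 contacts with a Tmed10 exon at 135 kb (1.63, exact binomial test, adjusted p = 0.0211) and a coverage of 2564, 2201, 4059 and 2446. In these 3 loops the p42 UT list was the highest. For p42 LPS against p30 LPS none was called, with adjusted p = 1 in the exact binomial test.

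In the other direction, a loop of 85 kb from the printed chromosome 8 bin to Nfix had 48 contacts in p30 UT, 15 in p30 LPS and 20 in p42 UT and was not listed in p42 LPS (p42 UT against p30 UT -1.34 on the log2 scale, exact binomial test, Benjamini-Hochberg adjusted p = 0.0141). The 100 kb loop from the same bin to Nfix had 74 contacts in p30 UT and 119 in p42 UT (log2 0.61, exact binomial test, adjusted p = 0.0853), and was lower in p42 LPS than in p42 UT (log2 -0.90, exact binomial test, adjusted p = 0.0169). A loop of 55 kb within 2900026A02Rik had 72, 54, 85 and 19 contacts. It was lower in p42 LPS than in p42 UT by 1.90 on the log2 scale (exact binomial test, adjusted p = 1.21e-05) and than in p30 LPS by 1.63 (adjusted p = 0.00249), and with expected counts the former was the only one of its comparison to be called (adjusted p = 0.0374). The loop from the bin beside Ins2 to Tnni2 had 35, 39, 32 and 14 contacts (p42 LPS against p30 LPS, log2 -1.60, exact binomial test, adjusted p = 0.0250). The p42 LPS list was the lowest in both. A 10 kb loop from Hexim1 to the start of Hexim2, a pair of genes for inhibitors of the elongation factor P-TEFb, had 172, 216, 272 and 147 contacts and was called in all 4 comparisons, upward for p42 UT against p30 UT (0.58) and p30 LPS against p30 UT (0.64) and downward for p42 LPS against p30 LPS (-0.68) and against p42 UT (-0.62).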

How the data were processed

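The authors mapped H3K27ac HiChIP reads to mm39 with BWA-MEM 0.7.17, removed duplicates with pairtools and called loops with FitHiChIP in 5 kb bins at a q-value under 0.01. How the 2 replicates of a group were pooled was not stated. The lists have 26 columns without names, read in the caller's order. The deposited contact counts are raw ligation products. The expected contacts are a signal that the authors' caller modelled from distance and coverage, so that a change in acetylation is partly removed from contacts over expected. The authors' contact probability, a fraction of all modelled contacts in a list, gave the depth, by dividing the expected contacts by it. The authors' q-value was adjusted over all tested pairs. Per the labels, 8 libraries formed 4 groups.

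Mixed loops had exactly 1 peak flag and a distance under 500000. Genes came from GENCODE M39, each with its canonical start, and sequences from GRCm39. Wilson intervals (95%) were given to shares and hold counting error alone, since reads are not independent molecules. Lists were the units of the exact sign-flip tests. The binomial test was run on every loop in both lists and was tested on simulated data. Genes were named by rank of their mixed loops (12 starts, 6 bins without a start, 6 genes per direction with the same sign in both comparisons, list members with a non-peak start), and called, strongest and printed loops after their values were seen. A last rule, for starts with a peak in the lists of only 1 isoform, named none. Single promoters of the gene lists, counted as partners, were picked by no fixed rule. Members, gene lists and tests were chosen with earlier results of these data known. Python 3.11.15, pandas 2.3.3 and scipy 1.17.1 were used. Some genes that these rules name are not reported here.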

Additional observations from a re-analysis of the deposited data

Results flagged for a closer look

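Of 7 measures of the mixed loops, 5 went in opposite directions from the UT to the LPS list in p30 and p42 cells. The other 2, their number and their share of the list, fell in both lines. With 1 list per group, none of these differences between the lines was tested, and the difference between the libraries and that between the conditions cannot be told apart. Mixed loops per 1000000 modelled contacts went from 502 to 568 in p30 and from 755 to 429 in p42, a difference between the changes of -391.8. In lists of equal length, the number of mixed loops went from 8760 to 6461 in p30 and from 5508 to 6793 in p42. Both ran opposite to these rates, but they are counts not scaled to depth. The counts of the full lists went from 9017 to 8235 in p30 and from 14339 to 6793 in p42, so that of the counts only that of p42 turned. The share of the modelled contacts in mixed loops went from 0.902% to 1.02% and from 1.44% to 0.742%, a difference of -0.82 percentage points. Median contacts over expected went from 5.60 to 5.38 and from 4.97 to 5.57, a difference of 0.82. The share beside a loop between 2 peak bins went from 35.7% to 40.4% and from 45.8% to 38.1%, a difference of -12.4 percentage points, and the share with no listed loop within 1 bin from 25.1% to 23.7% and from 19.2% to 26.1%, a difference of 8.33. In all 5 measures the p42 UT list was at the extreme, and it was also the longest list.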

How the results depend on the processing

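No paired analysis was possible because the replicates of each group were pooled in the deposited lists, and for the same reason no replicate could be left out. Of 49 recomputed values, 37 kept their direction and any call, though some changed in size, 8 moved and 4 reversed. Among the 37 are settings that used the peak flags of the other lists. These could not change a value, since no bin was flagged differently between lists. In lists of equal length, the ratio of mixed loops reversed for p42 UT over p30 UT (0.629 against 1.59), p42 LPS over p30 LPS (1.05 against 0.825) and p42 LPS over p42 UT (1.23 against 0.474), while the other settings kept it. The difference in median contacts over expected from peak to peak loops turned from 1.24 to -0.55 at matched distances, and was 0.50 from 20 kb upward and 1.70 at a q-value of 0.001. The share of distinct mixed loops in all 4 lists moved from 9.64% to 31.6% with 1 bin of slack and to 11.2% in lists of equal length. The share of non-peak bins with a gene start moved from a mean of 5.16% to 18.1% with starts of all genes, by construction, and to 5.66% without bins beside a peak. With expected counts as the reference, the mixed loops called fell from 58 to 0 (p42 UT against p30 UT), 32 to 1 (p42 LPS against p30 LPS), 32 to 0 (p30 LPS against p30 UT) and 17 to 1 (p42 LPS against p42 UT). The direction of the core kept its margin over the control motif, 20.4 percentage points, with the stricter core AGGGGGCGC (22.5) and without bins beside a peak (21.0). Depth limits the pairs that are listed: contacts of unlisted pairs are unknown, and loops of 10 contacts or fewer cannot show small differences.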
